A study of Mus musculus with 6 samples.

Results

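The basement membrane genes described here are the 10 transcripts for the collagen IV chains Col4a1, Col4a2 and Col4a5, the collagens XV (Col15a1) and XVIII (Col18a1), the nidogens Nid1 and Nid2, perlecan (Hspg2), agrin (Agrn) and osteonectin (Sparc). They were chosen by gene name from the 22880 genes of the deposited table, and all 10 passed the filter on low counts that left 12014 genes for testing. RNA sequencing was done on MC-38GFP cells, a murine colon adenocarcinoma line carrying green fluorescent protein, which had been sorted out of orthotopic tumors of the cecum wall of C57BL/6J mice. There were 3 Mock libraries and 3 HIF-1α-KD libraries. Cells of both groups carried the lentiviral vector pLKO.1-puro and had not been passaged in vivo. HIF-1α was stably knocked down in the HIF-1α-KD cells alone, whereas the host stroma of both groups kept its own HIF-1α. The sort gate took living cells that were GFP+, CD45- and CD31-, that is, neither leukocytes nor endothelial cells. The sources used here give neither the age of the mice nor whether a library came from 1 tumor or whether the knock-down line is 1 clone, so p-values measure the spread between these libraries, which may in part be technical.

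Basement membranes are thin sheets of matrix beneath epithelia and endothelia and around muscle and fat cells. Collagen IV and laminins each form a network, nidogens bind to both networks, and the heparan sulfate proteoglycans perlecan and agrin hold growth factors and link the sheet to cells. Collagens XV and XVIII sit at the border to the underlying tissue, and the end fragment of collagen XVIII, endostatin, inhibits vessel growth. Sparc is a calcium-binding glycoprotein that binds collagen IV and takes part in its deposition. In tumors both the tumor cells and the stroma can make these proteins, and the comparison asks which of the transcripts differ in sorted tumor cells when HIF-1α is reduced in these cells alone.

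Promoter windows of 300 bases, from 250 bases before to 50 bases after the annotated start of transcription, were found in RefSeq (GRCm38.p6) for 9 of the 10 genes, in 11 windows, and Nid2 had none in that table. Col4a1 and Col4a2 are shown because they lie head to head on chromosome 8, with start sites 21 bases apart and windows that share 78 bases (chr8:11312777-11312854). Both windows of Col18a1 are shown because this gene had one of the 2 differences that met the criterion of p and fold change defined below, and Nid2, the other, has no window. Each is written 5′ to 3′ on the strand of its gene, and capitals mark GCGTG, one of the core motifs that HIF can bind, read on either strand.
Col4a1, chr8:11312777-11313076, minus strand: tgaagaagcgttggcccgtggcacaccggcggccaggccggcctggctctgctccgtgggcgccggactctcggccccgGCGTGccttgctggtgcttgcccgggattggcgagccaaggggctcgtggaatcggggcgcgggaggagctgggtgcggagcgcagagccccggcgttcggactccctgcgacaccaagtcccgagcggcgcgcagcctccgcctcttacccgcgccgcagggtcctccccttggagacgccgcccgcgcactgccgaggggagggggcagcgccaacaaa
Col4a2, chr8:11312555-11312854, plus strand: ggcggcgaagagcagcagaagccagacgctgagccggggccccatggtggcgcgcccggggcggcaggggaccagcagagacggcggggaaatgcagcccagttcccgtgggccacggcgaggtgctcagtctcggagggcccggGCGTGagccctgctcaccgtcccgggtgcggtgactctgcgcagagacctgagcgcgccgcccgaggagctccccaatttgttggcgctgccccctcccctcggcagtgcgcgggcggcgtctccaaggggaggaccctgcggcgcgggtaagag
Col18a1 upstream, chr10:77166481-77166780, minus strand: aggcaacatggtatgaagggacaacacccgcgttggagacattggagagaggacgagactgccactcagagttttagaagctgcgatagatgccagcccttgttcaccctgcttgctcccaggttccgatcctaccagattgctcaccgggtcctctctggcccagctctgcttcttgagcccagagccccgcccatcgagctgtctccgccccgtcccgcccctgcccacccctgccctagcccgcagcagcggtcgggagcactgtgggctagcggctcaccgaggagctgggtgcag
Col18a1 downstream, chr10:77113656-77113955, minus strand: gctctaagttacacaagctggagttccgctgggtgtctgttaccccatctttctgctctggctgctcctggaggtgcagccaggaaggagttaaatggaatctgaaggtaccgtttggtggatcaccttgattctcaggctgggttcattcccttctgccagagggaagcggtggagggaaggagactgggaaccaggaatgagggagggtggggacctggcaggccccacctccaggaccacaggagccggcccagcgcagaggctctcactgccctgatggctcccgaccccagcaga
GCGTG was present once in the window of Col4a1, 171 bases before its start, and once in that of Col4a2, 105 bases before its start. Neither window of Col18a1 held it. Among the 11 windows, 4 held GCGTG (the others were those of Hspg2 and of 1 of the starts of Agrn), and 0 of 11 held ACGTG, the other core motif searched. Of 32544 windows in the whole RefSeq table, 32.6% held GCGTG and 19.7% held ACGTG on either strand. No match of GCGTG overlapped a match of another motif searched. CCAAT was found in 5 of the 11 windows (Col4a1, Col4a2, Col4a5, Nid1 and the upstream window of Col18a1) and in 37.4% of all windows. GGGCGG was in 8 of the 11, the downstream window of Col18a1 and those of Col15a1 and Sparc lacking it, and in 35.9% of all. TATAAA was in 0 of the 11 and in 13.6% of all. These matches describe the letters only, and the counts per gene do not tell the starts of a gene apart.

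The libraries held from 19845821 to 30809361 reads assigned to genes. Hif1a (ENSMUSG00000021109) stood at 6914, 5424 and 4945 normalized counts in the Mock libraries against 697.3, 3142 and 1928 in the HIF-1α-KD libraries, with no overlap of the groups (log2 fold change -1.82, standard error 0.46, limma adjusted p = 0.219). HIF-1α-KD replicate 1 had the lowest Hif1a count, and leaving it out gave a log2 fold change of -1.21, or of -1.07 when Mock replicate 1 was left out too. Of 10 epithelial markers, 5 (Epcam, Vil1, Cdx1, Cdx2 and Cldn3) stayed under 1 FPKM in every library, and the summed level of the list was between 1.47 and 3.29 FPKM in 5 libraries and 15.001 FPKM in Mock replicate 3, so the labelled adenocarcinoma cells had few transcripts of epithelial markers. Of 10 endothelial markers, 7 (Kdr, Tek, Tie1, Emcn, Vwf, Cldn5 and Erg) were under 1 FPKM in all 6 libraries, with sums of 8.48 to 20.1 FPKM in Mock and 16.5 to 23.5 FPKM in HIF-1α-KD libraries. Flt1 made up much of this sum (log2 fold change 1.16, limma adjusted p = 0.375, groups overlapping), whereas Cdh5 was lower in each HIF-1α-KD than in each Mock library (log2 fold change -0.84, limma adjusted p = 0.294). Leukocyte markers summed to between 67.6 and 109.8 FPKM in 5 libraries and to 371 FPKM in HIF-1α-KD replicate 3. Of 10 fibroblast markers, 2 (Thy1 and Pi16) were under 1 FPKM in all libraries, and the list summed to 2010 to 3692 FPKM in Mock and 4670 to 5322 FPKM in HIF-1α-KD libraries, mostly from Col3a1. Without Col3a1 the other 9 fibroblast markers summed to 610, 583 and 1067 FPKM in the Mock libraries, against 644, 797 and 486 FPKM in the HIF-1α-KD libraries, so the groups overlapped, and the median log2 fold change of the 7 tested among them was 0.03. Pericyte and smooth muscle markers summed to 23.5 to 50.7 FPKM in Mock and 56.1 to 63.3 FPKM in HIF-1α-KD libraries, and 5 of 10 (Myh11, Cnn1, Kcnj8, Abcc9 and Notch3) were under 1 FPKM in all libraries. Like Col18a1 and Nid2 below, the pericyte and smooth muscle sum and Col3a1 did not overlap between the groups, with higher values in HIF-1α-KD libraries, and the part of other cells in these results was not tested. In bulk RNA, fewer cells of a type and less RNA per cell cannot be told apart.

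By the limma log2 difference, Col18a1 and Nid2 stood 3.69 and 3.59 times as high in HIF-1α-KD as in Mock cells. As ratios of the group means of normalized counts these were 3.57 for Col18a1 and 2.90 for Nid2. The other 8 basement membrane genes did not meet the criterion of p and fold change defined below. In HIF-1α-KD cells the 3 libraries lay above all 3 Mock libraries for Col18a1, Nid2 and Agrn, that is, for 3 of 10 genes, against 10.4% of all genes tested. With the criterion of p and fold change, that is, an unadjusted p-value below 0.05 together with at least a 1.5-fold difference, 2 of the 10 genes were higher (Col18a1 and Nid2) and 0 were lower, where 4.02% of all genes were higher and 7.48% changed in either direction. By limma, 0 of 10 passed an adjusted p-value of 0.05 over all genes tested, a threshold that 0.391% of the 12014 genes passed, and 2 of 10 had an unadjusted p-value under 0.05, as had 12.7% of all genes. The quasi-likelihood test of edgeR gave 0, with the same share of all genes called (0.391%), and the Wald test of DESeq2 gave 2 (Col18a1 and Nid2) at the same adjusted threshold, where DESeq2 called 2.36% of genes. The log2 fold change was above 0 for 9 of 10 genes and for 52.7% of all genes, with a median of 0.35 for the 10 genes and of 0.02 for all.

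**Figure D1:**
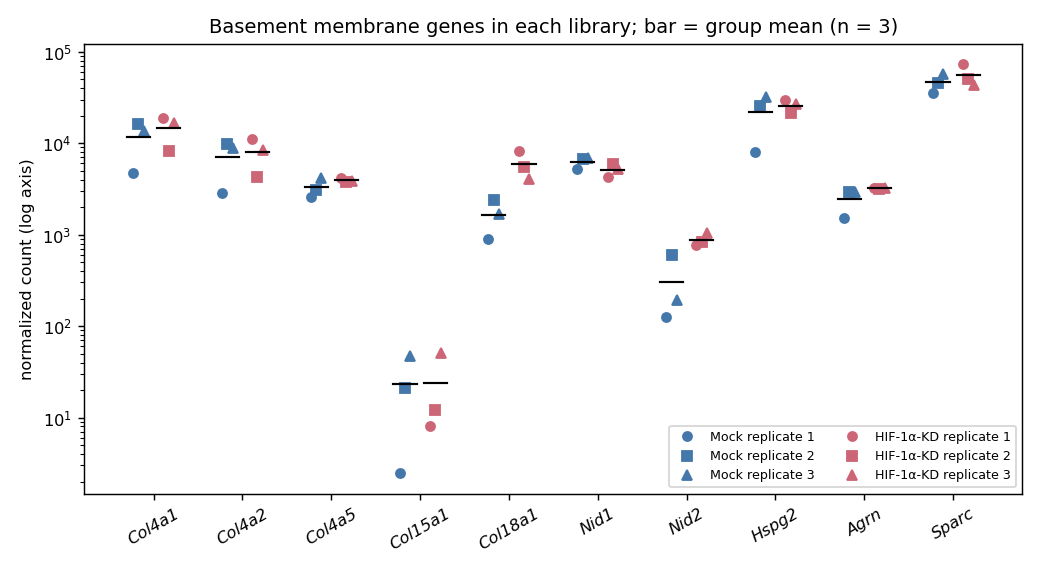
Normalized counts (log axis) of the 10 basement membrane genes in the 3 Mock (blue) and 3 HIF-1α-KD (red) libraries, where each symbol is 1 library and each bar a group mean. The groups are apart for Col18a1, Nid2 and Agrn and overlap for the other 7 genes, and Mock replicate 1 (blue circle) is the lowest library for 9 of 10 genes.

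Collagen IV makes the covalently linked network of the sheet, and its most widespread trimer joins Col4a1 and Col4a2 chains. Col4a1 (ENSMUSG00000031502, chromosome 8, 11198423 to 11312826) stood at 4776, 16350 and 13630 normalized counts in the Mock libraries against 18810, 8127 and 16610 in the HIF-1α-KD libraries. Mock replicate 1 and HIF-1α-KD replicate 2 were low and the other 4 libraries lay within the same range, so the groups overlapped. On the log2 scale Col4a1 differed by 0.42 between the groups, with a standard error of 0.47 and a 95% interval from -0.65 to 1.49 (limma adjusted p = 0.749). Col4a2 (ENSMUSG00000031503, chromosome 8, 11312805 to 11449287) stood at 2828, 9861 and 8758 normalized counts in the Mock libraries against 11130, 4261 and 8474 in the HIF-1α-KD libraries. The same 2 libraries were low for this gene, and the log2 difference was 0.24 (SE 0.49, 95% interval -0.88 to 1.36, limma adjusted p = 0.868). These intervals still allow fold changes of 2.80 for Col4a1 and 2.57 for Col4a2 upward, and of 0.637 and 0.542 downward. Col4a5 (ENSMUSG00000031274, chromosome X, 141475385 to 141689234), a chain of the other collagen IV trimers, was much steadier, at 2590, 3113 and 4136 normalized counts in the Mock libraries against 4114, 3718 and 3905 in the HIF-1α-KD libraries. The Mock libraries of Col4a5 spanned the whole range of the HIF-1α-KD libraries (log2 fold change 0.28, standard error 0.18, limma adjusted p = 0.558).

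The 2 chains whose starts lie head to head kept nearly the same proportion although each varied by more than 3-fold among the Mock libraries. On the FPKM scale, which is per length, the ratio of Col4a1 to Col4a2 was 1.26, 1.23 and 1.16 in the Mock libraries, against 1.26, 1.42 and 1.46 in the HIF-1α-KD libraries. The highest ratio was 1.26 times the lowest, and the HIF-1α-KD libraries lay just above the Mock libraries (exact permutation test, two-sided, p = 0.1, which is the lowest p reachable with 3 libraries in each group). The ratio of Col4a5 to Col4a1 varied more, between 0.163 and 0.463, with overlapping groups (exact permutation test, p = 0.8).

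Collagen XVIII is a heparan sulfate proteoglycan as well as a collagen. Col18a1 (ENSMUSG00000001435, chromosome 10, 77052178 to 77166548) stood at 891.3, 2369 and 1700 normalized counts in the Mock libraries against 8184, 5461 and 4053 in the HIF-1α-KD libraries. The lowest HIF-1α-KD library, replicate 3, was above the highest Mock library, replicate 2. The mean was 1653 ± 740 (SD, n = 3) in Mock cells, and HIF-1α-KD cells averaged 5899 ± 2100 (SD, n = 3). The log2 difference was 1.88 with an SE of 0.36 and a 95% interval from 1.06 to 2.71 (limma adjusted p = 0.109). Over the alternatives run, the adjusted p-value of Col18a1 was between 8.4e-06 with DESeq2 and 0.248 without Mock replicate 1. It was under 0.05 with DESeq2 and after correction for transcript length and GC content (limma, 0.0392), a correction chosen after seeing the data. Without Mock replicate 1 and HIF-1α-KD replicate 1, the libraries farthest apart, the log2 fold change was 1.23. Slc19a1 lies on the opposite strand and shares 8825 bases with Col18a1. It stood at 703, 1014 and 1203 normalized counts in the Mock libraries against 1068, 1162 and 1176 in the HIF-1α-KD libraries (log2 fold change 0.26, limma adjusted p = 0.643). The library kit keeps the strand according to the study's methods, and the strand setting of the counting is not given in the sources used here.

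Collagen XV is the closest relative of collagen XVIII, and its transcript was near the limit of detection. Col15a1 (ENSMUSG00000028339, chromosome 4, 47208161 to 47313167) had 2, 22 and 39 reads in Mock and 10, 10 and 44 reads in HIF-1α-KD libraries. The 2 reads of Mock replicate 1 carry an exact 95% Poisson interval of 0.242 to 7.22 reads, and the 44 reads of HIF-1α-KD replicate 3 an interval of 32.0 to 59.1 reads, which cover counting error only. The groups overlapped fully (log2 fold change 0.24, standard error 1.02, 95% interval -2.07 to 2.56, limma adjusted p = 0.941). Libraries of the same group differed by more than these counting intervals, and the interval of the difference still includes one as large as that of Col18a1.

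Nidogens are rod-like glycoproteins that join the laminin network to collagen IV, and the pair differed in how the groups compared. Nid2 (ENSMUSG00000021806, chromosome 14, 19751265 to 19811787) stood at 124.3, 595.2 and 193.3 normalized counts in the Mock libraries against 780.2, 825 and 1042 in the HIF-1α-KD libraries. Mock replicate 2 came close to the HIF-1α-KD libraries, and the other 2 Mock libraries were far below them. The mean was 304 ± 254 (SD, n = 3) in Mock cells, and HIF-1α-KD cells averaged 882 ± 140 (SD, n = 3). The log2 difference was 1.85 with an SE of 0.49 and a 95% interval from 0.74 to 2.95 (limma adjusted p = 0.238). Without Mock replicate 2 the log2 fold change was 2.49 (limma adjusted p = 0.0434), and over the alternatives run the adjusted p-value lay between 0.0257 with DESeq2 and 0.4997 without Mock replicate 1. Rtraf, on the opposite strand, shares 437 bases with Nid2 and had a log2 fold change of -0.52 (limma adjusted p = 0.339). Nid1 (ENSMUSG00000005397, chromosome 13, 13437551 to 13512269) was the only one of the 10 genes with a lower mean in HIF-1α-KD cells, at 5268, 6644 and 6971 normalized counts in the Mock libraries against 4264, 5964 and 5233 in the HIF-1α-KD libraries. For Nid1 the groups overlapped (log2 fold change -0.29, standard error 0.17, limma adjusted p = 0.528). Without Mock replicate 1 its log2 fold change was -0.41 (95% interval -0.81 to -0.02, limma adjusted p = 0.581). After correction for length and GC content it was -0.49 (limma adjusted p = 0.270). Per length, Nid2 had 0.0293, 0.111 and 0.0344 times the FPKM of Nid1 in Mock and 0.227, 0.171 and 0.247 times in HIF-1α-KD libraries. Nid1 thus stayed the more abundant nidogen in every library, and the ratio was higher in each HIF-1α-KD than in each Mock library (exact permutation test, p = 0.1, the smallest value possible).

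**Figure D2:**
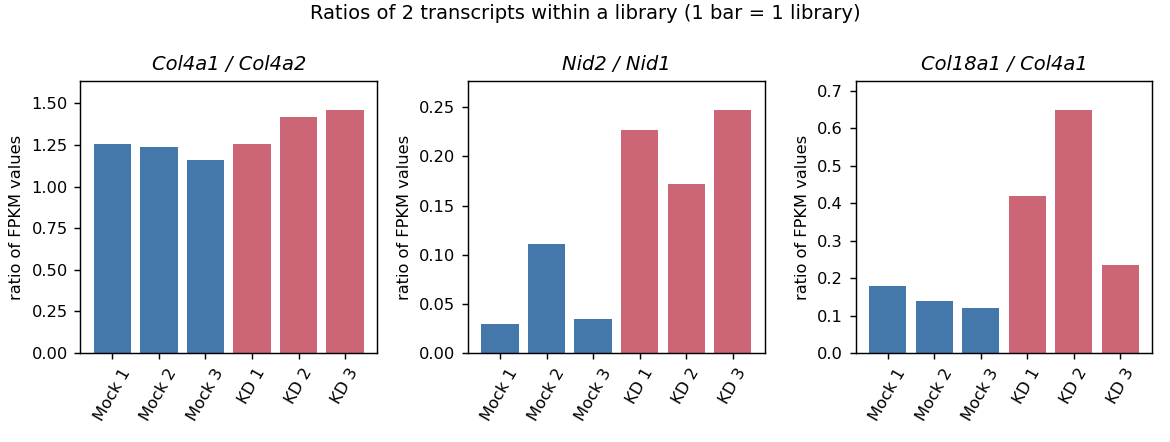
Ratios of FPKM values of 2 transcripts within the same library (1 bar for 1 library, Mock in blue, HIF-1α-KD in red, axes from 0). Col4a1 to Col4a2 stays between 1.16 and 1.46. All 3 ratios are higher in every HIF-1α-KD library than in every Mock library, by a narrow margin for Col4a1 to Col4a2.

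Perlecan and agrin are large proteoglycans of the sheet, and agrin also clusters receptors at the synapse between nerve and muscle. Hspg2 (ENSMUSG00000028763, chromosome 4, 137468769 to 137570630) stood at 7954, 25390 and 32310 normalized counts in the Mock libraries against 29460, 21440 and 26560 in the HIF-1α-KD libraries. Mock replicate 1 alone was low, and the other 5 libraries lay within a common range (log2 fold change 0.45, standard error 0.45, 95% interval -0.57 to 1.48, limma adjusted p = 0.712). Agrn (ENSMUSG00000041936, chromosome 4, 156165290 to 156197488) stood at 1512, 2959 and 2922 normalized counts in the Mock libraries against 3224, 3175 and 3207 in the HIF-1α-KD libraries. The HIF-1α-KD libraries were within 1.02 times of each other and above all Mock libraries, but by a small margin over Mock replicates 2 and 3 (log2 fold change 0.44, standard error 0.25, 95% interval -0.12 to 1.008, limma adjusted p = 0.4999). Without Mock replicate 1 the log2 fold change of Agrn was 0.12, and after correction for length and GC content it was 0.21. The ratio of Hspg2 to Agrn on the FPKM scale was 4.58 ± 1.60 (SD, n = 3) in Mock cells against 4.45 ± 0.667 (SD, n = 3) after knock-down (exact permutation test, p = 1).

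Sparc (ENSMUSG00000018593, chromosome 11, 55394500 to 55423183) was by far the most abundant of the 10 transcripts. The Mock libraries held 35720, 45090 and 57750 normalized counts of Sparc, against 72650, 49830 and 43340 in the HIF-1α-KD libraries. HIF-1α-KD replicate 1 was the highest and Mock replicate 1 the lowest library, and the other 4 were mixed (log2 fold change 0.25, standard error 0.24, 95% interval -0.30 to 0.81, limma adjusted p = 0.705).

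On the FPKM scale, averaged over the 6 libraries, Sparc came first (1625 FPKM), followed by Col4a1 (147), Col4a2 (114), Hspg2 (100.1), Col18a1 (41.1), Nid1 (38.5), Col4a5 (34.4), Agrn (21.6), Nid2 (5.03) and Col15a1 (0.497). Among all genes tested Sparc ranked 61 and Col15a1 ranked 11400 by this level. The ranges over libraries overlapped for neighbours in this order, except that Sparc (1096 to 2308 FPKM) lay apart from Col4a1 (51.2 to 208.6 FPKM), that Nid2 (0.993 to 8.999 FPKM) lay below Agrn (10.97 to 25.2 FPKM), and that the overlap of Col15a1 with Nid2 was narrow. Col18a1 changed its place. In Mock cells it had 17.7 ± 8.48 FPKM (SD, n = 3), below the 41.6 ± 6.64 FPKM (SD, n = 3) of Nid1, and in HIF-1α-KD cells 64.6 ± 21.4 FPKM (SD, n = 3), above the 35.4 ± 6.55 FPKM (SD, n = 3) of Nid1. The ratio of Col18a1 to Col4a1 was 0.147 ± 0.0305 (SD, n = 3) in Mock cells against 0.435 ± 0.207 (SD, n = 3) after knock-down (exact permutation test, p = 0.1). Together the 10 genes took 0.240%, 0.468% and 0.503% of the reads of the Mock libraries and 0.616%, 0.432% and 0.474% of those of the HIF-1α-KD libraries, with overlapping groups (exact permutation test, p = 0.5).

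**Figure D3:**
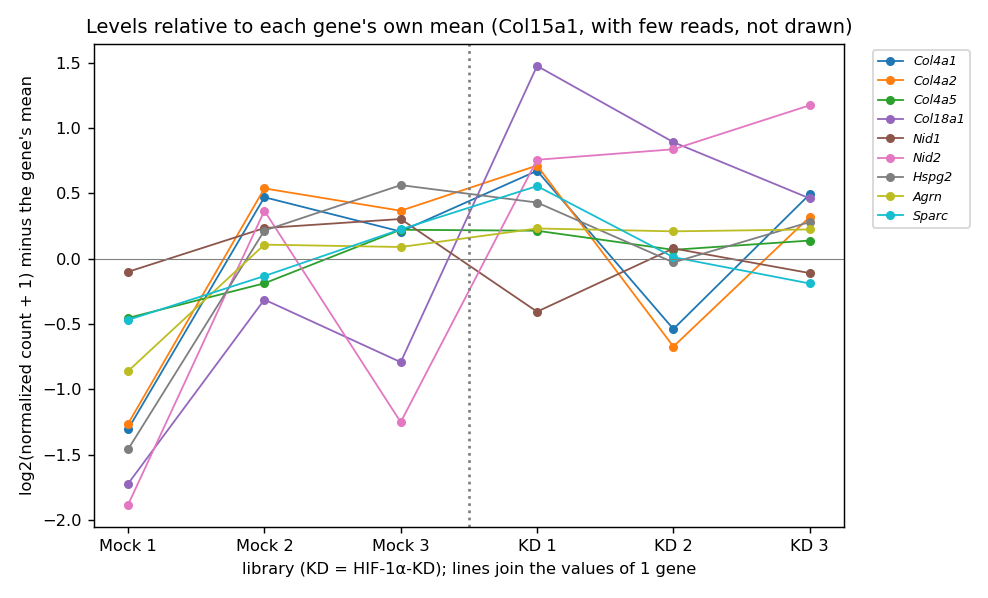
Level of 9 of the genes in each library as log2 of the normalized count plus 1, minus the mean of that gene over the 6 libraries (KD, HIF-1α-KD). Mock replicate 1 lies lowest for 8 of the lines drawn, the lines of Col4a1 and Col4a2 run together, and Col18a1 and Nid2 lie above their means in all HIF-1α-KD libraries.

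Mock replicate 1 was the lowest of the 6 libraries for 9 of the 10 genes, Nid1 being the exception, and for 27.1% of all genes tested. The mean deviation of the 10 genes from their own means was -1.18 in this library on the log2 scale and between 0.05 and 0.44 in the others. The 10 genes had a median GC content of 55.6% and a median transcript length of 4015 bases, against 50.6% and 1920 bases for all genes tested. In Mock replicate 1, the 2446 genes with a GC content of at least 56% had a median log2 deviation of -0.32 and the 712 genes of at least 5000 bases one of -0.19. In the other libraries these medians were between -0.02 and 0.13 for GC and between -0.18 (Mock replicate 3) and 0.12 for length. The part of GC content and length in the low values of this library was not tested beyond the correction given below. Without Mock replicate 1 the median log2 fold change of the 10 genes was -0.02, against 0.02 for all genes, and 5 of the 10 were below 0. Col4a1 (-0.13), Col4a2 (-0.33), Hspg2 (-0.16) and Col15a1 (-0.83) then had a negative log2 fold change. Col18a1 and Nid2 kept the criterion of p and fold change without this library, with log2 fold changes of 1.49 (95% interval 0.80 to 2.19) and 1.36 (95% interval 0.34 to 2.38), as they did under each of the 17 alternatives run. After correction for length and GC content they were 1.72 and 1.64, and that of Hspg2 was 0.03.

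**Figure D4:**
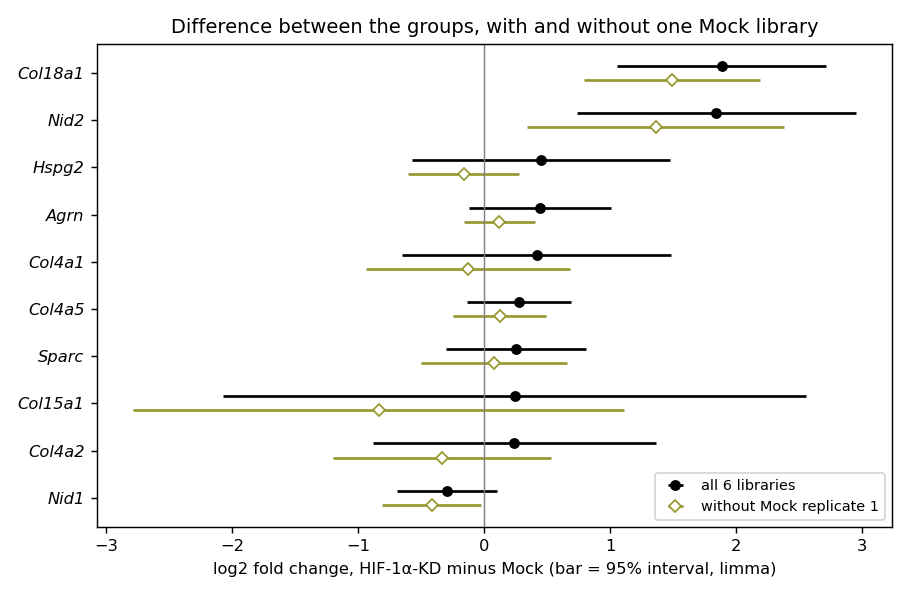
Log2 fold change of each gene, HIF-1α-KD minus Mock, with its 95% interval from limma, in all 6 libraries (black circles) and without Mock replicate 1 (open diamonds). The intervals of Col18a1 and Nid2 lie above 0 in both fits, and that of Nid1 lies below 0 only without Mock replicate 1. The estimates for Col4a1, Col4a2, Hspg2 and Col15a1 move to the other side of 0.

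Genes that act with these proteins were counted in 6 lists of 117 genes in all, of which 88 were tested, and the lists were chosen with earlier results of these data known, so their counts are a description. At the criterion of p and fold change 14 were higher and 4 were lower, 20.5% of those tested, against 7.48% of all genes (4.02% higher and 3.46% lower). Without Mock replicate 1 this count was 7 of 88 (7.95%), against 4.65% of all genes. The 7 were Lama5, Hs6st1, Extl1, Xylt1, Plod2, P4ha2 and Sdc4. With all 6 libraries Sdc4 alone of the 88 had a limma adjusted p-value under 0.05.

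Laminins form the second network of the sheet, and 4 of the 8 chains tested were higher and 0 lower (median log2 fold change 0.42), a count that was 1, Lama5, without Mock replicate 1. Lama5, the chain of most adult epithelial and vessel basement membranes, stood at 231.4, 373.2 and 386.5 normalized counts in the Mock libraries against 855, 525.2 and 753.1 in the HIF-1α-KD libraries (log2 fold change 1.11, limma adjusted p = 0.203). Lamc1, the chain shared by most laminins, stood at 7044, 12340 and 13080 normalized counts in the Mock libraries against 18380, 17700 and 17140 in the HIF-1α-KD libraries (log2 fold change 0.76, limma adjusted p = 0.275). For both the groups were apart, and for Lamb1 (log2 fold change 0.74, limma adjusted p = 0.375) they overlapped. Of the 15 other basement membrane components tested, 3 were higher and 0 lower (median 0.33), namely Pxdn, the peroxidase that crosslinks collagen IV (0.64), the collagen IV chain Col4a6 (0.63) and the Sparc relative Sparcl1 (1.61, under 1 FPKM in all libraries), and the groups overlapped for each of these. Without Mock replicate 1, 0 of the 15 met the criterion and their median was 0.13.

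Of 18 genes for folding and modification of collagen, 3 were higher and 2 lower (median 0.02). Without Mock replicate 1, 0 were higher, the same 2 were lower and the median was -0.11. The 2 lower genes were hydroxylases that are known to be induced in hypoxia. Plod2, a lysyl hydroxylase, stood at 14360, 10730 and 11590 normalized counts in the Mock libraries against 6156, 8401 and 7404 in the HIF-1α-KD libraries (log2 fold change -0.74, limma adjusted p = 0.19). P4ha2, a subunit of prolyl 4-hydroxylase, stood at 4921, 5987 and 7399 normalized counts in the Mock libraries against 3621, 4208 and 3890 in the HIF-1α-KD libraries (log2 fold change -0.63, limma adjusted p = 0.245). Every HIF-1α-KD library was below every Mock library for both, while the higher genes were P3h1, a prolyl 3-hydroxylase (0.66), the collagen chaperone Serpinh1 (0.79) and Mia3, which loads collagen for export (0.59).

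Among 18 receptors, 0 were higher and 1 was lower (median 0.21, or 0.09 without Mock replicate 1). Syndecan 4 (Sdc4), a heparan sulfate proteoglycan of the cell surface, stood at 6778, 5891 and 7705 normalized counts in the Mock libraries against 3662, 3336 and 3796 in the HIF-1α-KD libraries (log2 fold change -0.91, standard error 0.15, limma adjusted p = 0.0447). The groups were far apart for this gene, but its limma adjusted p-value was between 0.0828 and 0.196 with any 1 library left out, and 0.109 with the replicate number as a block. Among 13 proteases and heparanase, 1 was higher and 1 was lower (median -0.18). Without Mock replicate 1, 0 of 13 met the criterion and the median was 0.004. Heparanase (Hpse), which cuts the heparan sulfate of perlecan, agrin and collagen XVIII, stood at 1057, 798.1 and 798.5 normalized counts in the Mock libraries against 538.9, 536 and 588 in the HIF-1α-KD libraries (log2 fold change -0.66, limma adjusted p = 0.232). Without Mock replicate 1 the log2 fold change of Hpse was -0.53, short of 1.5-fold (limma unadjusted p = 0.0107). Mmp9, a protease that cuts collagen IV, stood at 2756, 8843 and 12310 normalized counts in the Mock libraries against 49040, 14490 and 9763 in the HIF-1α-KD libraries, where HIF-1α-KD replicate 1 stood out and the groups overlapped (log2 fold change 1.51, limma adjusted p = 0.392).

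Of 16 genes that build or modify heparan sulfate, the chain carried by Hspg2, Agrn and Col18a1, 3 were higher and 0 lower (median 0.21). Without Mock replicate 1 the same 3 were higher, 0 were lower and the median was 0.15. The 6-O-sulfotransferase Hs6st1 stood at 365.6, 513.9 and 404.7 normalized counts in the Mock libraries against 1535, 989.2 and 784.3 in the HIF-1α-KD libraries (log2 fold change 1.32, limma adjusted p = 0.115). The glycosyltransferase Extl1 stood at 470.3, 568.4 and 647.5 normalized counts in the Mock libraries against 1935, 1247 and 872.1 in the HIF-1α-KD libraries (log2 fold change 1.1998, limma adjusted p = 0.196). Xylt1, which starts the chain, was at or below 12.1 normalized counts in Mock and had 137.5, 22.8 and 25.4 in HIF-1α-KD libraries (log2 fold change 2.08, limma adjusted p = 0.303). For all 3 genes the groups were apart and HIF-1α-KD replicate 1 was the highest library, as for Col18a1.

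**Figure D5:**
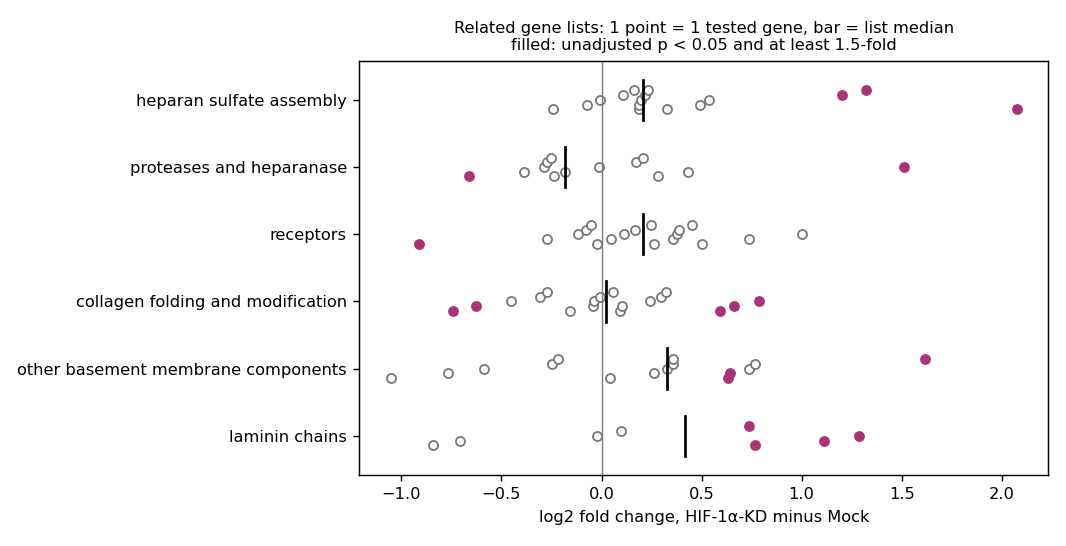
Log2 fold change, HIF-1α-KD minus Mock, of each tested gene of the 6 related lists, with filled points for genes that met the criterion of p and fold change, and a bar for the median of the list. The medians lie between -0.18 for proteases and heparanase and 0.42 for laminin chains, and all 4 filled laminin points lie to the right of 0. Without Mock replicate 1, which is not drawn, the medians were between -0.11 for collagen folding and modification and 0.31 for laminin chains.

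Among the genes whose levels over the 6 libraries were most like those of Col18a1, by root mean square difference of centred log2 values, were Tmem54 (0.34), Arap3 (0.35), Gli1 (0.37) and Ctxn1 (0.37), where the other 9 genes were allowed but none was among the nearest. For the mean of the 10 genes they were Cep131 (0.05), Zfp608 (0.07), Aebp1 (0.07), Myo10 (0.07) and Hirip3 (0.08), each lowest in Mock replicate 1.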

How the data were processed

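RNA of the 6 libraries was compared as 3 HIF-1α-KD against 3 Mock, grouped by their labels. The authors aligned reads with STAR and counted them with featureCounts (GRCm38 per the labels, GRCh38 in the methods, mouse identifiers in the table). The deposited normalized counts are a signal, each count divided by the authors by 1 factor per library. The authors also deposited FPKM values, transcript length, GC content as a fraction, and a log2 ratio, p-value and false discovery rate of their own comparison, which were not used. Whole reads were recovered (100% of values up to 300 reads within 0.05 of a whole number). Genes were filtered with filterByExpr of edgeR 4.0.16 (minimum count 10). Values on the log2 scale (normalized count + 1) were tested with limma 3.58.1 (mean-variance trend, two-sided, Benjamini-Hochberg over 12014 genes), because the values are not counts. Fold changes are on this scale, which understates those of low genes. All FPKM sums and ratios are of the deposited values. The alternatives, run under R 4.3.3, were DESeq2 1.42.0, edgeR, other scalings, filters, pseudocounts (0.1 and 10), a replicate block and each library left out. Also run were 2 alternatives chosen after seeing the data (2 libraries left out, loess correction with a span of 0.5). Only limma, edgeR and DESeq2 were also run on simulated data. The genes and lists were chosen with earlier results of these data known. From each related list, genes at an adjusted p-value under 0.05 and up to 3 per direction with the smallest p-values among those at an unadjusted p-value under 0.05 and 1.5-fold were named. Some genes of the lists and of the genes alike in level are not reported here. Genes alike in level needed a mean of at least 100 normalized counts. Gene positions are from GENCODE M21 (GRCm38).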

Additional observations from a re-analysis of the deposited data

How the results depend on the processing

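The criterion of p and fold change was met by Col18a1 and Nid2, and by no other of the 10 genes, under all 17 alternatives. At an adjusted p-value under 0.05, 2 of the 10 genes were called with DESeq2 and 1 (Col18a1) after the length and GC correction, and 0 to 1 when 1 library was omitted (Nid2 without Mock replicate 2). Of all genes, 283 were then called with DESeq2, 55 after the length and GC correction, 0 with the replicate block and between 0 and 37 with a library left out (37 without HIF-1α-KD replicate 1, 11 without Mock replicate 2, 9 without HIF-1α-KD replicate 3, 2 without Mock replicate 1, and 0 without Mock replicate 3 or HIF-1α-KD replicate 2), against 47. At p and fold change, between 559 and 1098 of all genes and between 7 and 19 related genes were called with a library left out (559 and 7 without Mock replicate 1), and 10 related genes without Mock replicate 1 and HIF-1α-KD replicate 1. The groups were apart for 3 to 5 of the 10 genes with a library left out (5 without HIF-1α-KD replicate 2), and for 26% to 31.2% of all genes in these smaller designs (26.6% without HIF-1α-KD replicate 2), against 19.2% with all 6 libraries. Log2 fold changes with a library left out were -0.13 to 0.79 for Col4a1, -0.33 to 0.64 for Col4a2 and -0.16 to 0.85 for Hspg2. They were 0.04 to 0.43 for Sparc, -0.83 to 1.06 for Col15a1, 0.12 to 0.61 for Agrn and 0.12 to 0.46 for Col4a5. They were -0.41 to -0.16 for Nid1, 1.49 to 2.20 for Col18a1 and 1.36 to 2.49 for Nid2. Without Mock replicate 1 and HIF-1α-KD replicate 1 they were -0.36 for Col4a1, -0.63 for Col4a2, -0.26 for Hspg2, -0.13 for Sparc and -0.33 for Col15a1, and for Col15a1 also -0.0099 with DESeq2 and -0.034 with edgeR. For Hif1a the log2 fold change was -2.30 to -1.21 with a library left out. Sdc4 had an adjusted p-value of 0.0501 with edgeR and 0.0519 with library totals. The cause was not tested. The replicate numbers share no pairing in the labels, and the deviations of same-numbered libraries correlated at -0.14, -0.12 and 0.02, so the block shows only how the count of calls moves. It left Col18a1 at an adjusted p-value of 0.208 and Nid2 at 0.244 (limma). With 3 libraries a group, the exact test cannot go below 0.1. Col15a1, with 2 to 44 reads a library, had the widest counting intervals relative to its level among the 10 genes.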
